A study of Rattus norvegicus with 170 samples.

Results

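Cholesterol synthesis in rat islet cells was followed through 8 of the 24113 genes in the table: the enzyme genes Hmgcs1, Idi1, Fdps, Fdft1, Sqle and Lss, the transcription factor gene Srebf2, and Insig1, whose product holds that factor back. The members and the gene lists used below were chosen with earlier results of these data known, and their rows were found by gene symbol. Their counts and medians, set beside those of all genes, are therefore description and no test. Values are RPM, reads scaled to a fixed total of mapped reads per cell, with the rows of a symbol added together, which concerned only Lss with 2 rows. None of the 8 acts in lipoprotein uptake, so genes of uptake were followed as a separate list.

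Animal cells build cholesterol from acetyl-CoA through mevalonate, isoprenoid units, squalene and lanosterol. When sterol is plentiful in the endoplasmic reticulum, INSIG proteins retain the SCAP and SREBP pair there, and when it is scarce the pair moves to the Golgi, where the SREBP product of Srebf2 is cut and released to the nucleus, to switch on genes of the pathway, Insig1 and Srebf2 included. In beta cells, the cholesterol of the plasma membrane and of insulin granules is known to bear on insulin secretion.

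Whole islets came from male wild type Sprague Dawley rats aged 8 weeks. They were kept for 48 h in RPMI1640 holding 5.5 mM glucose and 10% FBS. The control cultures had 0.1% DMSO and the treated ones GNF4877, which inhibits DYRK1A and GSK3β, at 3 µM. The islets, hand-picked and cultured whole, were then trypsinised, and single cells were captured on a microfluidic chip that admits only a range of cell sizes, amplified by PCR and sequenced, giving 86 DMSO cells and 84 GNF4877 cells. Mapped reads per cell ran from 241604 to 2499138 (median 1208304) in DMSO and from 298829 to 2171567 (median 1414725) in GNF4877. No animal, culture or second chip was named, so a treatment stands for 1 sample whose cells share their source, and the effects of treatment, chip and sequencing lane cannot be told apart. No test was therefore run, and ratios below describe these cells only.

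Beta cells were those with Ins1 of 1000 RPM or more and Gcg below 1000 RPM, and alpha cells those with Gcg of 1000 RPM or more and Ins1 below 1000 RPM. By this rule there were 56 DMSO and 58 GNF4877 beta cells, and 5 DMSO and 18 GNF4877 alpha cells. Another 22 DMSO cells and 1 GNF4877 cell held both hormones, and 3 DMSO and 7 GNF4877 cells held neither. The cells with both hormones were kept out of both classes, and no other removal of doublets was made here. Before that, the study had kept only chip ports verified by microscopy to hold a single cell. Few cells lay near the limits: Ins1 was between 500 and 2000 RPM in 1 DMSO and 2 GNF4877 cells, and Gcg in 3 DMSO cells and 0 GNF4877 cells.

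The classes were checked against markers that the rule had not used. One of them, Ins2, is an insulin gene as Ins1 is, and whether the 2 share reads was not tested. Of 7 beta markers in the table, Ins2 was the most abundant in both beta classes (mean 21449 RPM in DMSO, 10145 RPM in GNF4877), and the marker sum reached 1000 RPM in 52 of 56 and 54 of 58 cells. The other means went either way, from 1672 RPM in DMSO to 4608 RPM in GNF4877 for Iapp, from 1544 to 3094 RPM for Slc2a2, from 416 to 831 RPM for Slc30a8, from 38.3 to 32.2 RPM for Pdx1 and from 11.47 to 4.49 RPM for Nkx6-1. Mafa was near 0 in both, with a read in 3 of 56 DMSO and 0 of 58 GNF4877 beta cells. Of 6 alpha markers, Pcsk2 was the most abundant in alpha cells (2076 RPM in DMSO, 1886 RPM in GNF4877), although beta cells held it too, at 778 and 1149 RPM. The summed alpha markers had a median of 2175 RPM in DMSO alpha cells and 1366 RPM in GNF4877 alpha cells, against 773 and 1032 RPM in the beta classes. Sst or Ppy, the hormones of delta and PP cells, reached 1000 RPM in 3 DMSO and 3 GNF4877 beta cells and in 1 DMSO and 2 GNF4877 alpha cells. The 3 delta markers together had medians of 0 and 1.199 RPM in DMSO and GNF4877 beta cells. In alpha cells their medians were 9.73 RPM in DMSO and 127 RPM in GNF4877. Rbp4 was the most abundant of the 3 in GNF4877 alpha cells, with a mean of 151 RPM and a read in 17 of 18 cells.

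Markers of cells outside the islet were mostly near 0. The acinar and endothelial sums had medians of 0 RPM in both beta classes, with Cpb1 at 0 in both. Mesenchymal genes passed 1000 RPM in 2 DMSO beta cells, reaching 11030 RPM in DMSO_46 with Col1a1 the most abundant, in 0 GNF4877 beta cells and in 1 GNF4877 alpha cell. Cd74, the most abundant immune marker, averaged 3.60 RPM in DMSO and 54.4 RPM in GNF4877 beta cells. Duct markers, led by Krt7, had median sums of 155 and 150 RPM. Cells of high mesenchymal markers were left out in an alternative given below, and what part the others have in the results was not tested.

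Complexity differed with treatment. Beta cells had a median of 8809 genes with a read in DMSO and 7060 in GNF4877, and after thinning each cell to 100000 reads on listed transcripts the medians were 6464 and 4947. Alpha cells had fewer, with thinned medians of 5054 in DMSO and 3973 in GNF4877. A few libraries stood apart, with under 20% of their mapped reads on listed transcripts: 3 DMSO beta cells, 1 GNF4877 beta cell and 3 cells outside the classes. Results are given with them, and without them where the value moved.

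Treated beta cells held more RNA of the synthesis enzymes than DMSO beta cells. On the scale log2((mean RPM + 1)/(mean RPM + 1)), all 6 enzymes and Insig1 were higher by 2-fold or more, and Srebf2 was not. So 7 of 8 members were higher and 0 lower, where 11.3% of the 13868 genes with a mean of 1 RPM or more in either class were higher and 18.3% lower. The members' median log2 ratio was 2.08, beside -0.09 for all those genes, and it lay between 1.97 and 2.19 when any single cell was left out. Without the 4 cells of low listed share it was 2.03, and without the 2 beta cells of high mesenchymal markers 2.06, with 7 members higher.

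**Figure D1:**
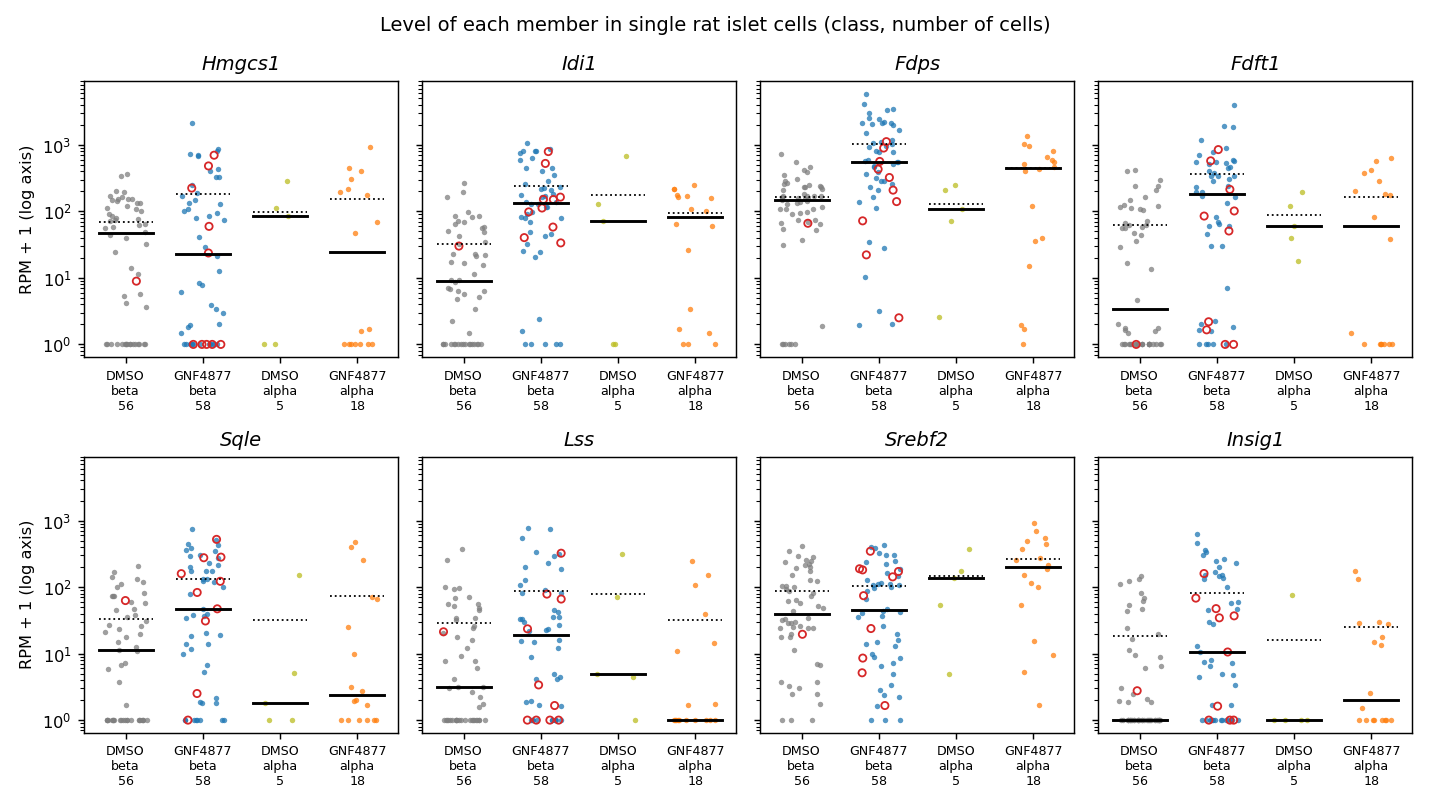
RPM + 1 of each member, on a log axis, in the beta and alpha cells of both treatments. A point is a cell, the solid line the class median, the dotted line the class mean, and red rings mark beta cells with Ccnb1 of 10 RPM or more. For Fdps, 26 of 58 GNF4877 beta cells lie above the highest DMSO beta cell, while Srebf2 covers nearly the same range in both.

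Hmgcs1 encodes the cytosolic synthase that makes HMG-CoA, near the head of the pathway. Its lowest, median and highest levels were 0, 46 and 360 RPM in DMSO beta cells and 0, 21.5 and 2157 RPM in GNF4877 beta cells. The treated class thus had the lower median and the longer upper tail, with 10 of 58 cells above every DMSO beta cell and only 26 of 58 above the DMSO median. The class means were 68.2 and 182 RPM, a log2 ratio of 1.41, which fell to 1.10 without the cell GNF4877_92. Averaging log2(RPM + 1) over cells instead gave a difference of 0.15, and by that measure 6 of 8 members were higher by 2-fold or more. The 6 highest treated cells held 56.2% of the class's Hmgcs1 RPM. Among all members this share ran from 37.2% (Srebf2) to 60.5% (Lss) in treated cells, so it does not set Hmgcs1 apart. Since the treated median was lower, the higher mean of this enzyme came from a minority of cells.

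Idi1 encodes the isomerase that interconverts the C5 isoprenoid units. It ran from 0 through a median of 8.03 to 268 RPM in DMSO beta cells, and from 0 through 133 to 1048 RPM in GNF4877 beta cells. Here the body of the class had shifted: 51 of 58 treated cells were above the DMSO median, and 15 were above the highest DMSO cell. The mean was 30.81 RPM in DMSO and 236 RPM in GNF4877, a log2 ratio of 2.89 (7.43-fold), the largest among the members.

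Fdps encodes farnesyl diphosphate synthase, whose product feeds sterols as well as protein prenylation. Levels were 0, 145 and 733 RPM (lowest, median, highest) in DMSO and 0.940, 559 and 5896 RPM in GNF4877 beta cells. The ranges overlapped, yet 26 of 58 treated cells exceeded the highest DMSO cell and 46 exceeded the DMSO median. Means of 165 and 1026 RPM gave a log2 ratio of 2.62 (6.17-fold). Summed over cells these were 11600 reads in DMSO (exact Poisson 95% interval 11390 to 11813) and 84250 reads in GNF4877 (83682 to 84821). Such intervals cover counting error only, since PCR reads without molecular identifiers are not independent molecules.

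Fdft1 encodes squalene synthase, the first enzyme committed to sterols. It stood at 0, 2.36 and 419 RPM in DMSO beta cells and at 0, 180 and 3920 RPM in GNF4877 beta cells. It reached 10 RPM in 27 of 56 DMSO cells, while 44 of 58 treated cells lay above the DMSO median and 17 above the DMSO maximum. The means were 60.9 and 370 RPM, a log2 ratio of 2.58, or 2.32 without GNF4877_18.

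Sqle encodes squalene epoxidase, a slow step of the pathway. Its lowest, median and highest levels were 0, 10.2 and 204 RPM in DMSO and 0, 46.1 and 738 RPM in GNF4877 beta cells, and the means of 32.6 and 133 RPM gave a log2 ratio of 2. Lss encodes lanosterol synthase, which closes the sterol rings. It was at 0, 2.18 and 373 RPM in DMSO and at 0, 17.9 and 761 RPM in GNF4877 beta cells, with means of 28.1 and 86.3 RPM and a log2 ratio of 1.59. Both overlapped widely between treatments: 15 treated cells passed the DMSO maximum of Sqle and 3 that of Lss.

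The regulators parted. Srebf2 ran from 0 through 38.1 to 411 RPM in DMSO beta cells and from 0 through 44 to 432 RPM in GNF4877 beta cells. The distributions lay on each other, with 1 of 58 treated cells above the DMSO maximum and 32 above the DMSO median. The means of 86.4 and 101 RPM gave a log2 ratio of 0.23, between 0.14 and 0.33 with any single cell left out, and -0.11 when cells with both hormones counted as beta cells. Insig1 stood at 0, 0 and 144 RPM in DMSO and at 0, 9.52 and 621 RPM in GNF4877 beta cells. Most DMSO cells had none, and 13 of 58 treated cells were above the DMSO maximum. Its means of 17.2 and 80.4 RPM gave a log2 ratio of 2.16 (4.47-fold).

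**Figure D2:**
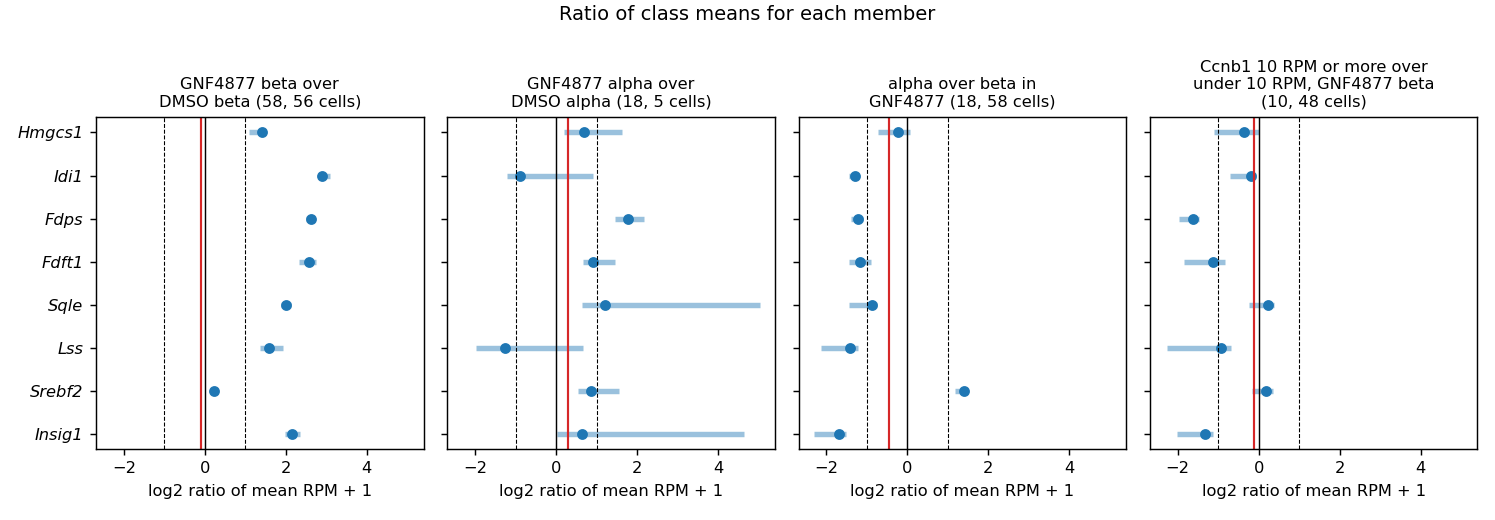
Log2 ratio of class means (RPM + 1) for each member in 4 comparisons, with the number of cells of the first and second class above each panel. Points are the ratios, bars the lowest and highest ratio with any single cell left out, dashed lines mark 2-fold, and the red line is the median of all genes with a mean of 1 RPM or more. In beta cells 7 of 8 points lie right of the upper dashed line, and bars are widest for the alpha comparison with its 5 DMSO cells.

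The share of cells with a read also differed by member. Idi1 was read in 39 of 56 DMSO beta cells (69.6%, with 95% bounds of 55.9 and 81.2% by the exact Clopper-Pearson method) and in 53 of 58 GNF4877 beta cells (91.4%, 81 to 97.1%). Such bounds count each cell as a separate draw from its own sample, so they do not compare the treatments. At equal depth, thinned to 100000 reads, the shares were 59.3% (45 to 72.4%) and 87.7% (76.3 to 94.9%). Insig1 was read in 44.6% of DMSO beta cells (31.3 to 58.5%) and 70.7% of GNF4877 beta cells (57.3 to 81.9%), and thinned in 29.6% (18 to 43.6%) and 59.6% (45.8 to 72.4%). For Fdft1 the thinned shares were 50.0% and 77.2%, for Sqle 53.7% and 68.4%, and for Lss 46.3% and 56.1%. Hmgcs1 was read in 69.6% and 70.7% of cells, and thinned in 64.8% of DMSO (50.6 to 77.3%) and 56.1% of GNF4877 cells (42.4 to 69.3%), so the higher mean of Hmgcs1 did not come with more cells holding a read. Srebf2 was read in 94.6% and 94.8% of cells, and thinned in 85.2% and 77.2%. Thinning left out 2 DMSO beta cells and 1 GNF4877 beta cell that were too shallow.

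Cell by cell, the 6 enzymes added up to 0, 354 and 1335 RPM (lowest, median and highest) in DMSO beta cells and to 12.3, 1174 and 10890 RPM in GNF4877 beta cells. Of 58 treated cells 27 were above the DMSO maximum and 10 below the DMSO median. Fdps made up 42.9% of the summed RPM in DMSO and 50.5% in GNF4877. Leaving Fdps out of the sum, 18 of 58 treated cells were above the DMSO maximum. At least 6 of the 8 members reached 10 RPM in 16 of 56 DMSO and 32 of 58 GNF4877 beta cells.

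Members went together across cells more closely in treated beta cells. Over the 28 pairs, the Spearman correlation of log2(RPM + 1) had a median of 0.22 (range -0.03 to 0.46) among 56 DMSO cells and of 0.39 (0.06 to 0.65) among 58 GNF4877 cells, the highest pair being Idi1 with Fdps. After thinning, the medians were 0.15 and 0.38. Cells of a treatment share their chip, chemistry and range of depth, and the weak values in DMSO are no finding. Levels differed too: member medians ran from 0 RPM (Insig1) to 145 RPM (Fdps) in DMSO, and from 9.52 to 559 RPM for the same genes in GNF4877. Cells without a read are ties, and thinning does not even out levels. What part this has in the correlations was not tested. Each member set against the mean of the other 7 gave between 0.26 and 0.49 in DMSO. In GNF4877 the highest such value was 0.70, for Fdps, and the lowest 0.31, for Srebf2. Srebf2 was also the member that went most with the number of genes read, at 0.53 in DMSO and 0.33 in GNF4877.

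The genes most like the members were sought among 6197 genes read in at least 50% of both beta classes, by their correlation with the mean log2(RPM + 1) of the 8. Chosen in GNF4877 cells, the first was Msmo1, a sterol demethylation enzyme, at 0.76 (0.30 in DMSO), and the fifth was Cyp51, the lanosterol demethylase, at 0.58 (0.30 in DMSO). Between them lay RGD1561594 (0.75 in GNF4877, 0.30 in DMSO), RGD1565157 (0.75 and 0.40) and LOC680626 (0.72 and 0.28). After thinning, the values in GNF4877 and DMSO were 0.74 and 0.22 for Msmo1, 0.62 and 0.06 for RGD1561594, 0.69 and 0.12 for RGD1565157, 0.44 and 0.12 for LOC680626 and 0.58 and 0.20 for Cyp51. The 95th percentile of all those genes was 0.27 in GNF4877 and 0.38 in DMSO. Chosen in DMSO cells, the 5 were Tpm4, Mpi, Hsd17b10, Cul1 and Cd320, at 0.53 to 0.56 in DMSO and 0.00 to 0.28 in GNF4877, and after thinning at 0.37 to 0.46 and -0.01 to 0.33. In DMSO the members' mean itself went with the number of genes read (0.47), less so in GNF4877 (0.12).

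The unnamed genes among these may share reads with a member. Over all 170 cells RGD1565157 followed Fdps with a Spearman correlation of 0.99, at a median of 9.93% of the level of Fdps in the 138 cells with Fdps of 50 RPM or more. RGD1561594 followed Fdps at 0.96 (4.54% of its level) and LOC680626 at 0.81 (0.721%). Likewise LOC100361317, which RefSeq lists as the pseudogene Idi1-ps1, followed Idi1 at 0.88 (3.15% of its level), and LOC100909424 followed Insig1 at 0.91 (20.7%). These genes were picked after their values were seen. Whether their sequences match the members was not tested, and how reads of alike transcripts were divided is uncertain. With these transcripts added to the member they followed, the log2 ratios for treated over DMSO beta cells were 2.91 for Idi1, 2.61 for Fdps and 2.20 for Insig1. In alpha cells, Insig1 went from 0.63 to 1.06, which made 3 members rather than 2 higher by 2-fold or more.

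The rest of the pathway was described by gene lists, naming the highest and lowest ratios among genes read in 25% or more of the cells of the class with the higher mean. Counts with any cell left out were added after the values were seen. Of 15 other sterol synthesis genes in the table, 8 were higher by 2-fold or more in treated beta cells (7 with any cell left out) and 0 lower, where 11.3% of all genes were higher and 18.3% lower, with a median log2 ratio of 1.04. The highest were Hsd17b7, a sterol ketoreductase (3.09, mean 24 against 1.94 RPM), and Acat2, the cytosolic thiolase that makes acetoacetyl-CoA (2.77, 163 against 23 RPM). The lowest were Tm7sf2, a sterol reductase (-0.71, or -1.19 without GNF4877_74), and Ggps1, which uses farnesyl diphosphate for geranylgeranyl diphosphate outside the sterol branch (-0.57).

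Of 13 genes that control SREBP, 0 were higher by 2-fold or more, 5 were lower and 8 were neither, with a median of -0.80, where 18.3% of all genes were lower. Only 2 of the 5, Rnf139 and Erlin1, were 2-fold lower with any cell left out. The other 3, named after their values were seen, were Nr1h3, at -1.75 and at -0.20 without DMSO_46, Scap, at -1.08 and at -0.81 without DMSO_36, and Mbtps1, at -1.09 and at -0.83 without DMSO_58. The highest ratios were 0.13 for Nr1h2, which encodes the oxysterol receptor LXRβ, and 0.08 for Insig2, and the lowest named were -1.53 for Rnf139, an endoplasmic reticulum ubiquitin ligase (-2.27 without GNF4877_40), and -1.16 for Erlin1. Insig1 and Insig2, which encode proteins of like function, thus had log2 ratios of 2.16 and 0.08.

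Of 18 genes of uptake, transport and storage, 4 were higher and 6 lower, where 11.3% and 18.3% of all genes were. Their median was 0.07, and 3 of the 4 and 2 of the 6 were so with any cell left out. Those 2 lower genes, named after their values were seen, were Lrp1 at -4.01 and Cav1 at -2.76. Lrp1 was read in 7 of 56 DMSO cells, with 61.5% of its RPM in 1 cell, and was at -2.79 without DMSO_24. Cav1 was read in 4 of 56, and was at -1.20 without DMSO_46, the beta cell with the highest mesenchymal marker sum. Scarb1, the high density lipoprotein receptor, was at 1.59 (92.5 against 30.2 RPM) and Lrp8, a receptor for reelin and lipoproteins, at 1.30, while Stard3, a late endosomal sterol carrier, was at -1.06 and Nceh1, a cholesteryl ester hydrolase, at -1.01. Stard3 was at -0.87 without DMSO_95 and Nceh1 at -0.78 without DMSO_82. Fatty acid synthesis genes are driven mainly by the related factor of Srebf1. Of the 12 with a mean of 1 RPM, 5 were higher (4 with any cell left out) and 0 lower, against the same shares of all genes, with a median of 0.83. Scd1 was at 3.77 (55 against 3.09 RPM) and Fads1 at 3.07, both desaturases, and Mid1ip1 was at -0.63 and Me1 at -0.20. A single cell, DMSO_43, held 62.5% of the Fads1 RPM of the DMSO class, and without it the ratio was 4.25. All 6 cell cycle genes of the check list were higher by 2-fold or more, with a median of 4.65 and Ccnb2 at 4.75, Top2a at 4.74, Mki67 at 4.13 and Cdc20 at 3.55. Their DMSO levels rested on few cells: Top2a was read in DMSO_46 alone, which also held 52.3% of the Mki67 RPM, DMSO_81 held 78.1% for Ccnb2 and DMSO_36 50.6% for Cdc20. Without those cells Mki67 was at 5.02, Ccnb2 at 5.48 and Cdc20 at 4.26. Top2a was at 7.45 without DMSO_46, but no DMSO read was then left, so that value rests on the 1 RPM added to each mean.

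Alpha cells could be compared only roughly, since DMSO had 5. In those, in the order DMSO_33, DMSO_67, DMSO_89, DMSO_90 and DMSO_94, Fdps was at 212, 1.56, 250, 107 and 69.5 RPM. The 18 GNF4877 alpha cells ran from 0 through 446 to 1364 RPM, and 11 of them were above the highest DMSO alpha cell. The log2 ratio of 1.78 lay between 1.47 and 2.17 with any cell left out, so Fdps was higher in treated cells of both classes.

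For Sqle, Lss, Idi1 and Insig1 the ratios in alpha cells rested on single DMSO cells. Sqle was at 150, 0.782, 4.16, 0 and 0 RPM in the DMSO cells and at 0, 1.39 and 477 RPM (lowest, median, highest) in GNF4877. Its log2 ratio of 1.2 became 5.04 without DMSO_33, and 0.64 without GNF4877_85. A limit of 100 RPM for Ins1 and Gcg gave -0.52, which is no value of alpha cells alone: that limit kept 2 of the 5 DMSO and 16 of the 18 treated cells and drew in DMSO_29 and GNF4877_62, whose main hormone was Ppy, and GNF4877_5. Lss was at 3.49, 3.91, 70.7, 308 and 0 RPM in DMSO and at 0, 0 and 247 RPM in GNF4877, and its ratio of -1.27 became 0.66 without DMSO_90. The size of the Sqle ratio and the direction of the Lss ratio thus hung on single cells.

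Idi1 was at 127, 0, 688, 71.1 and 0 RPM in the DMSO alpha cells and at 0, 80.9 and 252 RPM in the treated ones, and its ratio went from -0.90 to 0.92 without DMSO_89. Insig1 had reads in DMSO_67 alone of the 5 (75.9 RPM) and in 10 of 18 treated cells, with a ratio of 0.63, or 4.65 without that cell and 0.02 without GNF4877_94. For Hmgcs1 the ratio was 0.68, or 1.64 without DMSO_94 and 0.19 without GNF4877_85. For Fdft1 it was 0.92 (0.66 to 1.46 with any cell left out) and for Srebf2 0.86, or 1.54 without DMSO_89. Averaged as log2(RPM + 1), Hmgcs1 was at -0.30 and Fdft1 at -1.62, where 11 of 18 treated cells had a read of Hmgcs1 and 11 of Fdft1, against 3 and 5 of the 5 DMSO cells.

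In all, 2 members were higher and 1 lower in treated alpha cells by 2-fold or more, where 35.6% of 12508 genes were higher and 23.9% lower. The members' median was 0.77 and that of all genes 0.29. Both counts are shares under the background, so they are no result about the members. Of the other sterol synthesis genes, 11 of 15 were higher and 0 lower, with a median of 1.43. Of 12 SREBP control genes 3 were higher and 7 lower (-1.73), and of 17 uptake, transport and storage genes 9 were higher and 1 lower (1.31). These list counts were not repeated with single cells left out, and they rest on 5 DMSO cells. Among those 5, Mvk and Lbr had no read, Pmvk had 1 read, and DMSO_89 held 84.9% of the Cyp51 RPM. The difference between beta and alpha cells in these ratios was not tested.

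Within GNF4877, alpha cells held less of most members than beta cells, and also had fewer genes read (medians of 3973 and 4947 after thinning). The log2 ratio of alpha over beta was -1.30 for Idi1, -1.21 for Fdps, -1.17 for Fdft1, -1.43 for Lss and -1.70 for Insig1, and -0.87 for Sqle and -0.23 for Hmgcs1. Fdft1 came to -0.91 without GNF4877_18, and the other 4 ratios were past 2-fold with any cell left out. Single cells also moved ratios the other way. Sqle came to -1.43 without GNF4877_85, Lss to -2.14 without GNF4877_7 and Insig1 to -2.32 without GNF4877_94. Srebf2 went the other way, at 1.39: it ran from 0.708 through 198 to 915 RPM in alpha cells, 14 of 18 of which were above the beta median of 44 RPM and 5 above the beta maximum. So 5 members were lower and 1 higher, where 34.4% of 13418 genes were lower and 14% higher, and the median was -1.19 against -0.45 for all genes. No alpha cell exceeded the highest beta cell in Idi1, Fdps, Fdft1, Sqle, Lss, Insig1 or Hmgcs1. For Hmgcs1 only 1 beta cell was above the highest alpha cell. With 18 alpha and 58 beta cells, the highest cell would more often be a beta cell. The share of all genes of which this holds was not counted, so it is no result about the members. Among the other sterol synthesis genes 1 of 15 was higher and 5 lower, with a median of -0.45.

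Among DMSO cells the same ratio had another order. Idi1 was at 2.49 and Lss at 1.43, but at 0.67 without DMSO_89 and -0.50 without DMSO_90, and Srebf2 was at 0.76, or 0.07 without DMSO_89. With 2 members higher and 0 lower, where 12.5% of 13632 genes were higher and 47.2% lower, the median was 0.49 against -0.88 for all genes. These counts hung on single cells too: 1 member was higher without DMSO_89 or DMSO_90 and 3 without DMSO_67 (Srebf2 then at 1.07), and 1 was lower without DMSO_33 (Sqle, at -3.91) or without DMSO_67 (Insig1, at -4.19). The enzyme sum had a median of 615 RPM in the 5 DMSO alpha cells (range 23.5 to 1071) and 1028 RPM in the 18 treated ones (16.2 to 2157). The latter overlapped the beta cells of both treatments.

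Beta cells with Ccnb1, the cyclin of the G2/M transition, at 10 RPM or more were found almost only under GNF4877: 10 of 58, against 1 of 56 in DMSO, DMSO_46, the beta cell with the highest mesenchymal marker sum (11030 RPM). No member was 2-fold higher in these 10 than in the 48 other treated beta cells. The 10 had more genes read after thinning (medians of 5271.5 and 4824) and higher beta marker sums (medians of 22220 and 10561 RPM). What part these differences have was not tested. Fdps was at 1.51, 265 and 1116 RPM (lowest, median, highest) in the 10 and at 0.940, 688 and 5896 RPM in the 48, and 16 of the 48 were above the highest of the 10. The log2 ratio was -1.62 for Fdps, -1.12 for Fdft1 and -1.33 for Insig1, and between -0.93 (Lss) and 0.23 (Sqle) for the other 5. Fdft1 was at -0.83 without GNF4877_18. Without GNF4877_96, Fdft1 was at -1.83, Lss at -2.27, Hmgcs1 at -1.11 and Insig1 at -2.02, with Sqle at -0.23 and Srebf2 at -0.17.

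Thus 3 members were lower and 0 higher by 2-fold or more, where 26.3% of 13089 genes were lower and 16.7% higher. The median of -0.64, beside -0.12 for all genes, rested partly on GNF4877_96, the cell with the highest sum of members among the 10 (4309 RPM), without which it was -1.47 and 5 members were lower. With any read of Ccnb1 as the rule, which moves 8 cells, the median was -0.01 and 0 members were 2-fold lower. The lower values in the Ccnb1 class therefore depended on how that class was drawn. Of the other sterol synthesis genes 1 was higher and 4 lower in the 10 cells, with a median of -0.56.

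Medians gave another order than means: those of Idi1, Sqle, Srebf2 and Insig1 in the Ccnb1 class were near or above those of the other treated cells. Idi1 was read at 10 RPM or more in 10 of 10 of these cells (exact 95% interval 69.2 to 100%), with a median of 130 RPM against 133 RPM in the others. Sqle had a median of 102 RPM in the 10 cells and 37.5 RPM in the 48. Srebf2 had medians of 107 and 41.4 RPM. For Insig1, counted above as lower by its mean, the medians were 21.5 and 8.20 RPM, and 6 of the 10 cells were above the median of the 48. The cells also differed widely among themselves, from a members' sum of 72.6 RPM in GNF4877_78, which had 4294 genes read, to 4309 RPM in GNF4877_96, with 7889.

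Set against DMSO beta cells, the 10 Ccnb1 cells had 5 members higher and 0 lower, where 15.7% of 13730 genes were higher and 33.2% lower, with a median log2 ratio of 1.14, or 0.62 without GNF4877_96. Without that cell only 2 members, Idi1 (2.48) and Sqle (1.73), were 2-fold higher: Lss, at 0.78, became -0.56, Insig1, at 0.99, became 0.30, Fdft1, at 1.6, became 0.89, Hmgcs1, at 1.11, became 0.35 and Fdps, at 1.18, became 0.94. Fdps was at 0.83 without GNF4877_63. The 48 treated beta cells under 10 RPM of Ccnb1 had 7 members higher and 0 lower, where 10.4% of 13757 genes were higher and 20.2% lower, with a median of 2.14. Both sets of treated cells share the DMSO cells. DMSO_46, with Ccnb1 and mesenchymal markers both, held 65.2 RPM of Fdps and 0 RPM of Fdft1, inside the range of its class.

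Promoters are shown for a pair of the members with the largest ratios, Idi1 and Fdps, beside Insig1, which was also higher, and Srebf2, which differed little. The 250 bases before the transcription start were taken from a table of RefSeq promoters (GRCr8), in which 6 of 8 members were matched by symbol. Sequences run 5′ to 3′ on the strand of the gene, and capitals mark CCAAT or its complement ATTGG, the box bound by NF-Y. The windows are chr17:66547525-66547774 (minus strand) for Idi1, chr2:176804817-176805066 (minus) for Fdps, chr4:8057770-8058019 (minus) for Insig1 and chr7:115543057-115543306 (plus) for Srebf2.

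Idi1: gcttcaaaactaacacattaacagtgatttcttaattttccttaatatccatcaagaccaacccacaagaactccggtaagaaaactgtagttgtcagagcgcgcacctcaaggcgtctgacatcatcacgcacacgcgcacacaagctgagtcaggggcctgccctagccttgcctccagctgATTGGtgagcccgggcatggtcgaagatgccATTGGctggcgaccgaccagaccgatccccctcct
Fdps: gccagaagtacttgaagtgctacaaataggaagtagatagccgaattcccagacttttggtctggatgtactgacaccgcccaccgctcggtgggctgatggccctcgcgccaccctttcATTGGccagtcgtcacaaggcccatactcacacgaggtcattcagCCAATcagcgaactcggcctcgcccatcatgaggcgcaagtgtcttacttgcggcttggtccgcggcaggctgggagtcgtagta
Insig1: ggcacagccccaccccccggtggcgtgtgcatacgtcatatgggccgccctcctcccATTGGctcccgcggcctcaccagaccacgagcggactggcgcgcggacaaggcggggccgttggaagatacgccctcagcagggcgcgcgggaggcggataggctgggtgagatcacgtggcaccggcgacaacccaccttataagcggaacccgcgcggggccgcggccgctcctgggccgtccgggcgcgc
Srebf2: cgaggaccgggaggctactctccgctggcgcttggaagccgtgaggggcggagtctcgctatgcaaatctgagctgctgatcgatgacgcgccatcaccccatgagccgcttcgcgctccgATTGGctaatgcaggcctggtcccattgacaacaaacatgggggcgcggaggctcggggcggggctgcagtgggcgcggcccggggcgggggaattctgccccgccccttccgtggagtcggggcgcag

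Both strands were searched. A CCAAT box was found in 6 of 6 members with a window (Hmgcs1, Idi1, Fdps, Lss, Srebf2 and Insig1) and in 34% of 33469 promoters of the same length. Idi1 had its boxes 66 to 62 and 35 to 31 bases before the start, and Fdps at 130 to 126 and 85 to 81. The GC box GGGCGG, bound by Sp1, was in 5 of 6, all but Idi1, and in 30.5% of promoters. The E box CACGTG was in Insig1 alone of the 6 and in 5.59% of promoters. The 9 letters TCACNCCAC of a sterol regulatory element were in 0 of 6 windows and in 0.974% of promoters, and without the last base, as TCACNCCA, in Srebf2 and in 3.24% of promoters. The shorter form overlaps the longer and was searched after the longer gave no match. A match describes letters in these windows only. Elements spelled with other letters were not searched, so the lack of a match does not show that a promoter lacks a sterol regulatory element.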

How the data were processed

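The deposited table gives RPM, reads scaled to the mapped reads of a cell, which the authors made before deposition. The submitters' processing notes credit CASAVA 1.8.2, BWA 0.5.9 and SAMtools 0.1.19, and mention a mouse transcriptome as the reference, whereas rat RefSeq transcripts stand in the table. Its floor of 0.01 was set to 0 (69.7% of values), and rows of a symbol were added. Reads came from each cell's smallest step, and of values at 20 reads or fewer 100% were whole to within 0.1. Cells were thinned once to 100000 listed reads (seed 1). Ratios are log2((mean RPM + 1)/(mean RPM + 1)), with background genes at a mean of 1 RPM or more in either class. Before deposition the study had kept only chip ports verified by microscopy to hold a single cell. Here doublets were not removed beyond setting aside cells with both hormones. Named are the 8 members, the 2 highest and 2 lowest genes of each list in treated over DMSO beta cells among those read in 25% of the cells of the higher class, and the 5 genes most like the members in each treatment. The members and lists were chosen with earlier results of these data known. Some alternatives were chosen after seeing the data. These left out cells of low listed share or of mesenchymal markers at 1000 RPM, or single cells for list genes in treated over DMSO beta cells. Another added the transcripts that followed Idi1, Fdps and Insig1. The work ran in Python 3.11.15, with matplotlib 3.10.9 for figures, scipy 1.17.1 for intervals, and pandas 2.3.3 on numpy 2.4.6 for tables.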

Additional observations from a re-analysis of the deposited data

Results flagged for a closer look

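Among cells outside the beta and alpha classes, 2 treated cells had sums of the 8 members above the highest DMSO cell outside the classes (1510 RPM). GNF4877_15, with neither hormone at 1000 RPM, summed to 5883 RPM, with Fdps at 2253 RPM, Hmgcs1 at 1516 RPM and Ccnb1 at 608 RPM. GNF4877_31, with both hormones, summed to 3856 RPM, with Fdps at 1451 RPM. Each is a single cell, and no difference was tested.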

How the results depend on the processing

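No paired analysis was possible because no animal or culture was named. In treated over DMSO beta cells 0 members were lower in each alternative run and 7 were higher, except 6 by the difference of mean log2(RPM + 1), where Hmgcs1 was at 0.15. The median ran from 1.74 (pseudocount of 10 RPM) to 2.42 (hormone limit of 100 RPM). Of 120 single ratios there 118 moved little, as did 105 of 112 for alpha over beta cells in GNF4877, where 4 to 6 members were lower and 1 higher. In alpha cells, treated over DMSO, the count of lower members was 2 by the difference of mean log2, 0 with the highest hormone limit tried and 2 without cells holding Sst or Ppy. With single cells left out, higher members numbered 1 to 3 and lower members 1 to 2, and Lss ran from -1.98 to 0.66. With a hormone limit of 100 RPM Sqle was at -0.52, but there DMSO_29 and GNF4877_62, cells led by Ppy, had entered the alpha classes. For Ccnb1, any read as the rule gave a median of -0.00812, 0 lower members and 0.00522 for Fdps. Against DMSO beta cells the Ccnb1 class had a median of 1.14, 5 higher and 0 lower members, Fdps at 1.18, Fdft1 at 1.6 and Insig1 at 0.99. With single cells left out, the Ccnb1 median ran from -1.47 to -0.49 and lower members from 2 to 5. The causes were not tested. The median of all genes moved by -0.30, -0.66, 0.20 and 0.23 in the 4 comparisons (beta, alpha, alpha over beta, Ccnb1) by the difference of mean log2, by -0.15 and 0.24 in alpha and alpha over beta with a pseudocount of 10 RPM, by -0.53 and -0.10 in alpha and Ccnb1 with a hormone limit of 100 RPM, by -0.43 in alpha with the highest limit, by 0.21 in alpha without Sst or Ppy cells, and by -0.10 in alpha without cells of high mesenchymal markers. Shares of cells with a read were set against those after thinning and those at 10 RPM or more. Of these 64 alternatives 46 stayed within counting error, and 18 did not. Departures arose under both, and the limit of 10 RPM is no change of depth, so the 18 do not measure depth alone.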

Other observations

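The 22 DMSO cells with both hormones had sums of the 8 members of 232, 545 and 1510 RPM (lowest, median and highest), and Srebf2 in them ran from 19.6 through 162 to 627 RPM. The 3 DMSO cells with neither hormone summed to 5.75, 269 and 691 RPM, and the 7 such GNF4877 cells ran from 1.57 through 251 to 5883 RPM. Of those 7, GNF4877_49 held Sst at 35288 RPM, Ccnb1 at 1460 RPM and Fdps at 844 RPM.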
